A study of Homo sapiens with 15 samples.

Results

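Desmosomes are the junctions that anchor the keratin network of one epithelial cell to that of its neighbour, and 10 genes of their cadherins, linkers and plakin, of 28395 genes counted in BEAS-2B cells, are described here. They are the desmosomal cadherins DSG2, DSG3, DSC2 and DSC3, the plakin DSP, the linker JUP, and the plakophilins PKP1, PKP2, PKP3 and PKP4. The list was taken by gene symbol, matched to the Entrez number of each count. It was drawn up with the 30-week rise of DSG2 already known from an earlier pass over the same counts. The values at 30 weeks are therefore a description with no test, whereas the acute exposure, the 15-week exposure and the change from 24 h to 15 weeks did not enter the choice.

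BEAS-2B is an immortalized human line from bronchial epithelium, and the study asked how its transcriptome responded to nanoplastics of polyethylene terephthalate (PET-NPLs) when exposure was prolonged. Total RNA was sequenced from unexposed and exposed cells after 24 h (2 control and 2 exposed samples), 15 weeks (2 and 2) and 30 weeks (3 and 4). Exposed cells received PET-NPLs at 50 µg/mL with each change of medium, control cells received none, and every group grew in DMEM with serum, nonessential amino acids and Plasmocin. The 24 h and 15-week samples carry the label of batch 1, and all 30-week samples that of batch 2. All samples come from 1 cell line, and nothing says that replicates came from separate cultures, so p-values measure the spread between these samples, which may be technical.

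In a desmosome, desmogleins (DSG) and desmocollins (DSC) span the membrane and bind those of the next cell. On the inner side, plakoglobin (JUP) and the plakophilins (PKP) tie the cadherin tails to desmoplakin (DSP), which holds the keratin filaments. Simple epithelia typically rely on DSG2 and DSC2, whereas DSG1, DSG3, DSC1 and PKP1 are known best from stratified epithelia such as the epidermis. In the airway, these junctions help the epithelial sheet to withstand stretch. Several parts, among them DSG2, DSP, JUP and PKP2, are also found in heart muscle.

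Total counts ran from 23143202 to 31459990 per sample, and levels are given as CPM, counts scaled to a common library size, where 1 CPM stood for 23 to 34 counts. Control replicate 1 at 30 weeks stood apart in its scaling factor, 0.739 against 0.907 to 1.13 in the other samples, so the members' differences that rest on the 30-week controls are also given without it, while those of single related genes are given with all 3 controls. Of 15 markers of airway epithelium, 5 to 7 had no more than 3 counts in any sample of a condition, and GRHL2, TP63, NKX2-1 and FOXA2 never exceeded 3 counts. In the 30-week controls, the summed level of 14 skeletal muscle markers was 378 to 488 CPM, against 31.6 to 43.0 CPM in exposed cells of that time and 16.3 to 41.5 CPM in the earlier samples. TNNT1, MYOD1, JSRP1 and CHRNA1 carried most of that control sum, at 208, 85.3, 76.0 and 47.7 CPM on average. MYF5 and MYF6 had 0 counts there, and MYH3 averaged 3.16 CPM in these controls and 3.49 CPM in exposed cells. The 12 cardiac muscle markers summed to 34.2 to 49.4 CPM in these controls, against 1.58 to 2.80 CPM in exposed cells of the same time. TNNT2 made up most of this control sum, at 38.4 CPM on average. NPPB was higher in exposed cells, at 0.602 CPM on average against 0.0143 CPM in these controls. The summed level of the 15 airway markers was lower in these controls, with 316 to 411 CPM against 878 to 1098 CPM, carried mainly by the keratins. Of the 9 with enough counts for a test, 6 were higher in exposed cells, among them KRT8, KRT18 and KRT19. CDH1, EPCAM and CLDN4 went the other way, averaging 0.620, 0.175 and 0.512 CPM in these controls and 0.565, 0.151 and 0.320 CPM in exposed cells. The 12 fibroblast markers summed to 1978 to 2505 CPM in these controls and 1621 to 1844 CPM in exposed cells, carried mainly by VIM. Single fibroblast markers went both ways, and 4 of the 10 with enough counts for a test were higher in exposed cells. COL1A1 averaged 55.3 CPM in these controls and 7.4 CPM in exposed cells, whereas COL1A2 averaged 0.312 and 3.20 CPM. In bulk RNA, fewer cells of a type and less RNA per cell cannot be told apart.

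Among the cadherins, BEAS-2B cells held counts of DSG2 and little else. DSG1, DSG4 and DSC1, desmosomal cadherins outside the list that lie in the same cluster on chromosome 18, had 0 counts in all 15 samples. DSC2 had 2 and 3 counts in the control samples at 24 h and 0 counts in the other 13 samples, although it is the usual partner of DSG2 in simple epithelia. DSG3, known from basal keratinocytes, had 8 counts in exposed replicate 2 at 15 weeks, 3, 2 and 1 counts in 3 other samples, and 0 counts in the remaining 11. DSG3 and DSC2 did not pass the filter on low counts, and the other 8 genes did. DSC3 passed only through the 24 h samples, where it had 22 and 31 counts in control and 23 and 31 counts in exposed cells. It had at most 2 counts at 15 weeks and at most 3 counts at 30 weeks in any sample.

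DSG2 (Entrez 1829) lies on the forward strand of chromosome 18 at 31498177 to 31549008 (GRCh38). DSG2 reached 68.2 and 69.8 CPM in the 24 h controls, 65.2 and 63.5 CPM in cells exposed for 24 h, 22.9 and 23.0 CPM in the 15-week controls, and 27.0 and 25.7 CPM in cells exposed for 15 weeks. At 30 weeks the controls stood at 2.54, 2.96 and 2.22 CPM, and the exposed samples at 52.4, 37.8, 34.9 and 50.7 CPM. The order of the 6 conditions was thus 24 h control, 24 h exposed, 30-week exposed, 15-week exposed, 15-week control and 30-week control, and no neighbours in this order overlapped.

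DSP (Entrez 1832, chromosome 6 at 7541671 to 7586714), which carries the load between plaque and keratin, followed DSG2 most closely among the members. Its level was 96.2 and 78.1 CPM in the 24 h controls, 83.3 and 97.5 CPM after 24 h of exposure, 26.5 and 24.8 CPM in the 15-week controls, and 29.8 and 28.4 CPM in the 15-week exposed samples. At 30 weeks DSP was at 3.83, 5.42 and 5.44 CPM in control cells and at 32.0, 23.4, 19.0 and 21.8 CPM in exposed cells. The lowest exposed sample at 30 weeks thus lay above the highest control. Over the 15 samples, the log2 CPM of DSP and DSG2 had a Pearson correlation of 0.922, given as a description, since the samples fall into 6 conditions and 2 batches.

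The 250 bases before the annotated start of DSG2, DSP and, for comparison, PKP1 are printed because DSG2 and DSP showed the widest 30-week difference among the members and PKP1 did not share it. The sequences are the promoter entries of RefSeq on GRCh38.p14, which hold 250 bases before and 50 bases after each start for 8 of the 10 genes. PKP2 and PKP3 had no entry. Capitals mark the hexamer CAGGTG, or CACCTG where it is read on the opposite strand, which is the E-box form bound by factors of the Snail and ZEB families.

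DSG2, chr18:31497927-31498176, + strand: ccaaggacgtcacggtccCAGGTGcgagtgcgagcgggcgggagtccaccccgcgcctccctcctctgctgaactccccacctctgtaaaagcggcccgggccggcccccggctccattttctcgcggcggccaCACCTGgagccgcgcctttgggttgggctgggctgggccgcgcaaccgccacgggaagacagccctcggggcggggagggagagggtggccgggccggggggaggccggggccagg
DSP, chr6:7541421-7541670, + strand: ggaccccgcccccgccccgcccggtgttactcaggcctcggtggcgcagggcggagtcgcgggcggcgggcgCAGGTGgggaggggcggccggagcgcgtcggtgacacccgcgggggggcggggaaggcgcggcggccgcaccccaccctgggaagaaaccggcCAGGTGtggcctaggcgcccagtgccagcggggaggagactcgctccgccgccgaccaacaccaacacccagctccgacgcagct
PKP1, chr1:201283256-201283505, + strand: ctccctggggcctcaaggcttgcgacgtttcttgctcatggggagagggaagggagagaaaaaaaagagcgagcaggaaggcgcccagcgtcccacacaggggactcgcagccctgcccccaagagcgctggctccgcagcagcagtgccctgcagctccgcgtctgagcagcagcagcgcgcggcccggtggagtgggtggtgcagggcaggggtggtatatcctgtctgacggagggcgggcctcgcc

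The E-box occurred at 2 places in DSG2, beginning 232 and 116 bases before the start, and at 2 places in DSP, beginning 178 and 85 bases before it. JUP also had 2 copies in 1 of its entries, beginning 54 and 43 bases before the start, and DSC2 had 1 copy in an entry. Neither shared the wide 30-week difference, as JUP samples overlapped between control and exposed cells and DSC2 had 0 counts at 30 weeks. None was found in DSG3, DSC3, PKP1 and PKP4. At least 1 copy was present in 20.6% of all 35116 promoters of 300 bases, and 2 or more copies in 3.49%. The AP-2 motif GCCNNNGGC was found in DSG2, DSC2, JUP and PKP4 and in 23.2% of all promoters. The AP-1 motif TGANTCA (7.71% of promoters) and the grainyhead motif AACCGGTT (0.134%) were found in no member. All motifs were searched on both strands, and a match is a description of letters, not of binding.

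**Figure D1:**
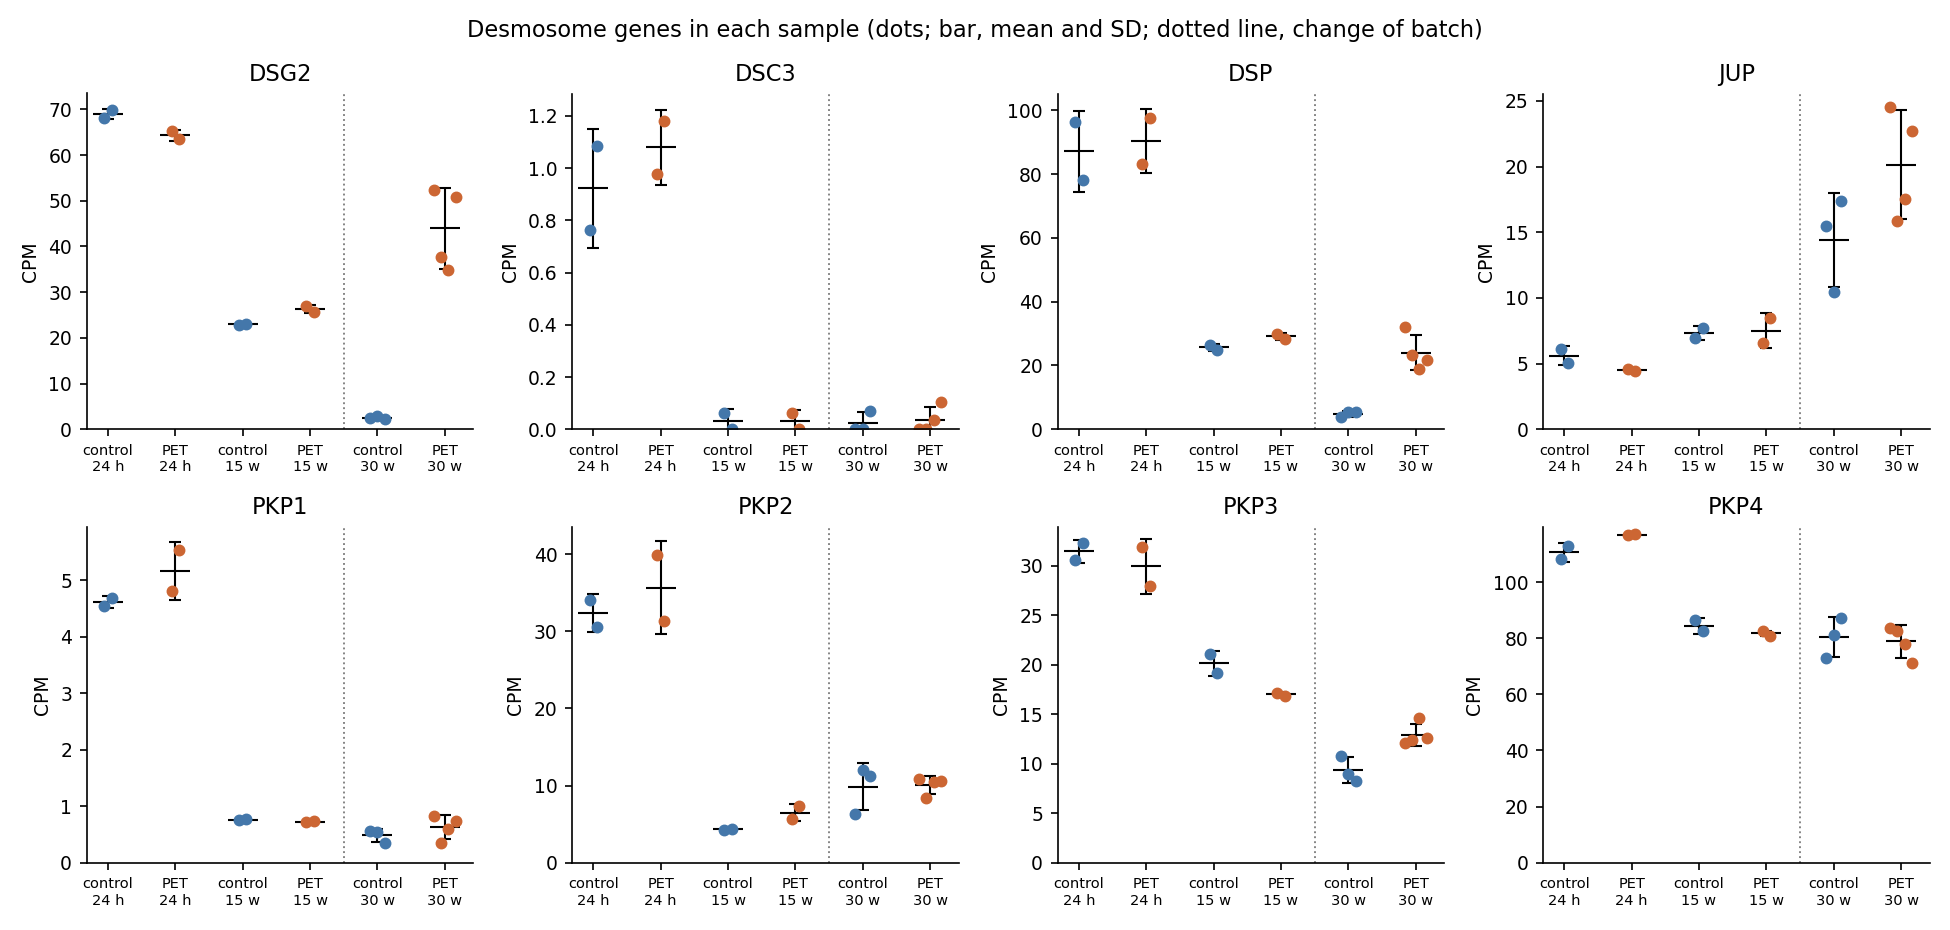
Level of the 8 members that passed the filter, in CPM on a linear axis from 0, in each of the 15 samples (dots, blue control and orange exposed cells), with the mean and SD of each condition in black and a dotted line where the batch changes. DSG2 and DSP fall from 24 h to 15 weeks in both arms and are lowest in the 30-week controls, at 2.57 and 4.89 CPM on average.

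JUP (Entrez 3728, chromosome 17), the armadillo linker shared by desmosomes and adherens junctions, ran against the other members. JUP was at 6.10 and 5.07 CPM in control and 4.59 and 4.42 CPM in exposed cells at 24 h, at 6.98 and 7.73 against 6.58 and 8.44 CPM at 15 weeks, and at 15.4, 10.4 and 17.4 against 24.6, 15.8, 17.5 and 22.7 CPM at 30 weeks. Every 30-week sample was above every earlier one, while control and exposed cells overlapped at 30 weeks. Its log2 CPM was negatively correlated with each of the other 7 members over the 15 samples, with Pearson values from -0.35 for DSG2 to -0.83 for PKP3.

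The plakophilins, which reinforce the plaque and gather desmoplakin to it, fell into separate patterns. PKP2 (chromosome 12), the widely expressed form, was at 34.1 and 30.6 CPM in control and 39.9 and 31.4 CPM in exposed cells at 24 h, and at 4.30 and 4.37 against 5.71 and 7.30 CPM at 15 weeks. At 30 weeks it was at 6.36, 12.0 and 11.2 CPM in control and 10.9, 8.41, 10.5 and 10.6 CPM in exposed cells, where the groups overlapped. PKP1 (chromosome 1), the form known from stratified epithelia, was at 4.54 to 5.53 CPM in the 24 h samples, at 0.714 to 0.767 CPM at 15 weeks and at 0.350 to 0.833 CPM at 30 weeks. It stayed under 1 CPM in all 11 samples after 24 h.

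PKP3 (chromosome 11) was at 30.7 and 32.3 CPM in control and 31.9 and 28.0 CPM in exposed cells at 24 h, and at 21.1 and 19.2 against 17.2 and 16.8 CPM at 15 weeks. At 30 weeks it was at 10.8, 8.99 and 8.27 CPM in control and 12.1, 12.4, 14.6 and 12.6 CPM in exposed cells, without overlap. PKP4 (chromosome 2), an armadillo protein also found at adherens junctions, varied least, with 108 to 117 CPM at 24 h, 81.0 to 86.4 CPM at 15 weeks and 71.1 to 87.2 CPM at 30 weeks. Per kilobase of exon, mean PKP4 was the highest member level in all 6 conditions, at 8.27 to 12.3 CPM per kilobase.

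To compare members with one another, levels were set per kilobase of exon. In the 24 h controls the mean levels after PKP4 were 8.29 for PKP3, 7.27 for DSG2, 6.40 for DSP, 3.14 for PKP2, 1.13 for JUP, 0.743 for PKP1 and 0.120 CPM per kilobase for DSC3. In the 30-week controls JUP came next after PKP4 with 2.92, ahead of PKP3 with 2.46, PKP2 with 0.959, DSP with 0.359, DSG2 with 0.271 and PKP1 with 0.0783 CPM per kilobase. JUP and PKP3 overlapped there, whereas DSP and DSG2 lay below PKP2 in all 3 samples. In the 30-week exposed cells DSG2 came next after PKP4 with 4.63 CPM per kilobase, and its samples overlapped those of JUP, at 4.08, and PKP3, at 3.40. The summed CPM of the 10 genes was 335 to 349 at 24 h and 162 to 170 at 15 weeks over both arms, and at 30 weeks 113 to 132 in control and 175 to 217 in exposed cells.

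The first comparison asked whether acute exposure for 24 h altered these genes. No member was called, that is, passed edgeR's quasi-likelihood test at a Benjamini-Hochberg adjusted p under 0.05, and none had an unadjusted p under 0.05. The background was 0% of the 16740 genes tested, with 277 genes at an unadjusted p under 0.05. For DSG2 the log2 fold change was -0.10 with a 95% confidence interval of -0.49 to 0.29, and for DSP it was 0.05 with an interval of -0.39 to 0.50. JUP had -0.31 (interval -0.87 to 0.25), PKP2 0.14 (interval -0.36 to 0.64), and PKP4 the narrowest interval, -0.20 to 0.36 around 0.08. The widest was that of DSC3, -1.14 to 1.59 around 0.23, at 22 to 31 counts per sample. The direction of DSC3, PKP2, PKP3 and DSP turned when 1 sample was left out.

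After 15 weeks of exposure no member passed the same test either, against a background of 0% of genes, with 823 genes at an unadjusted p under 0.05. DSG2 had a log2 fold change of 0.20 (95% interval -0.19 to 0.59) and DSP one of 0.18 (interval -0.27 to 0.64). PKP2 was the 1 member with an unadjusted p under 0.05 in edgeR (adjusted p = 0.985), at a log2 fold change of 0.59 ± 0.26 (SE). PKP3 had -0.24 (interval -0.58 to 0.09), PKP4 -0.05 (interval -0.33 to 0.23) and PKP1 -0.06 (interval -0.81 to 0.69), and JUP had 0.03, with overlapping samples and a direction that turned when 1 sample was left out. None of the 8 members was called by DESeq2, by limma-voom or by limma-voom with 2 surrogate variables at 24 h or at 15 weeks. DESeq2 called 18 genes of the whole table at 15 weeks.

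The comparison of 15 weeks with 24 h, within batch 1, asked how the members moved with culture time in each arm. In control cells 7 of the 8 tested members were lower at 15 weeks and none higher, beside a background of 24.9% of genes called and 12.2% called lower. In exposed cells 7 were lower and 1 higher, beside 26.0% called, 12.5% lower and 13.5% higher. Without DSC3, which could only pass the filter through its 24 h counts, 6 of 7 members were lower in each arm. The median log2 fold change of those 7 was -1.59 in control and -1.29 in exposed cells, beside -0.02 and 0.00 over all genes tested.

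PKP2 and PKP1 fell furthest among the members that kept counts above the floor at 15 weeks. In edgeR's quasi-likelihood test with Benjamini-Hochberg adjustment, PKP2 fell by 2.90 ± 0.26 (SE) on the log2 scale in control cells (7.46-fold, adjusted p = 7.55e-07) and by 2.45 ± 0.25 in exposed cells (5.48-fold, adjusted p = 2.97e-06). PKP1 fell by 2.59 ± 0.32 in control (adjusted p = 2.05e-05) and by 2.82 ± 0.32 in exposed cells (adjusted p = 8.88e-06, edgeR). In each gene and arm both 15-week samples were below both 24 h samples.

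DSG2 and DSP also fell in both arms. DSG2 fell by 1.59 ± 0.19 in control (3.00-fold, adjusted p = 1.36e-05, edgeR) and by 1.29 ± 0.19 in exposed cells (2.44-fold, adjusted p = 8.95e-05). DSP fell by 1.76 ± 0.22 in control (3.40-fold, adjusted p = 2.18e-05, edgeR) and by 1.63 ± 0.22 in exposed cells (3.10-fold, adjusted p = 4.10e-05). DSC3, the desmocollin with counts at 24 h, was at least 10.1-fold lower in control and at least 11.3-fold lower in exposed cells at 15 weeks, measured against a floor of 3 counts per library. DSC3 could pass the filter only through its 24 h counts, so the direction of its change was fixed by the filter. Whether the size of the fall differed between the arms was not tested.

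PKP3 and PKP4 fell less, and JUP did not fall. PKP3 fell by 0.64 ± 0.16 in control (adjusted p = 0.00648, edgeR) and by 0.82 ± 0.16 in exposed cells (adjusted p = 0.00119), and the control call was lost without control replicate 2 at 15 weeks (adjusted p = 0.0772). PKP4 fell by 0.39 ± 0.13 in control (adjusted p = 0.0418, edgeR) and by 0.52 ± 0.13 in exposed cells (adjusted p = 0.00909). Both PKP4 calls were lost when any 1 sample was left out, with adjusted p of 0.11 to 0.217 in control and 0.0507 to 0.0772 in exposed cells. JUP had a log2 fold change of 0.40 ± 0.26 in control (adjusted p = 0.291, edgeR) and rose by 0.74 ± 0.26 in exposed cells (adjusted p = 0.0489). The JUP call was lost in limma-voom (adjusted p = 0.101) and without any 1 of the 4 samples (adjusted p = 0.0613 to 0.286).

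**Figure D2:**
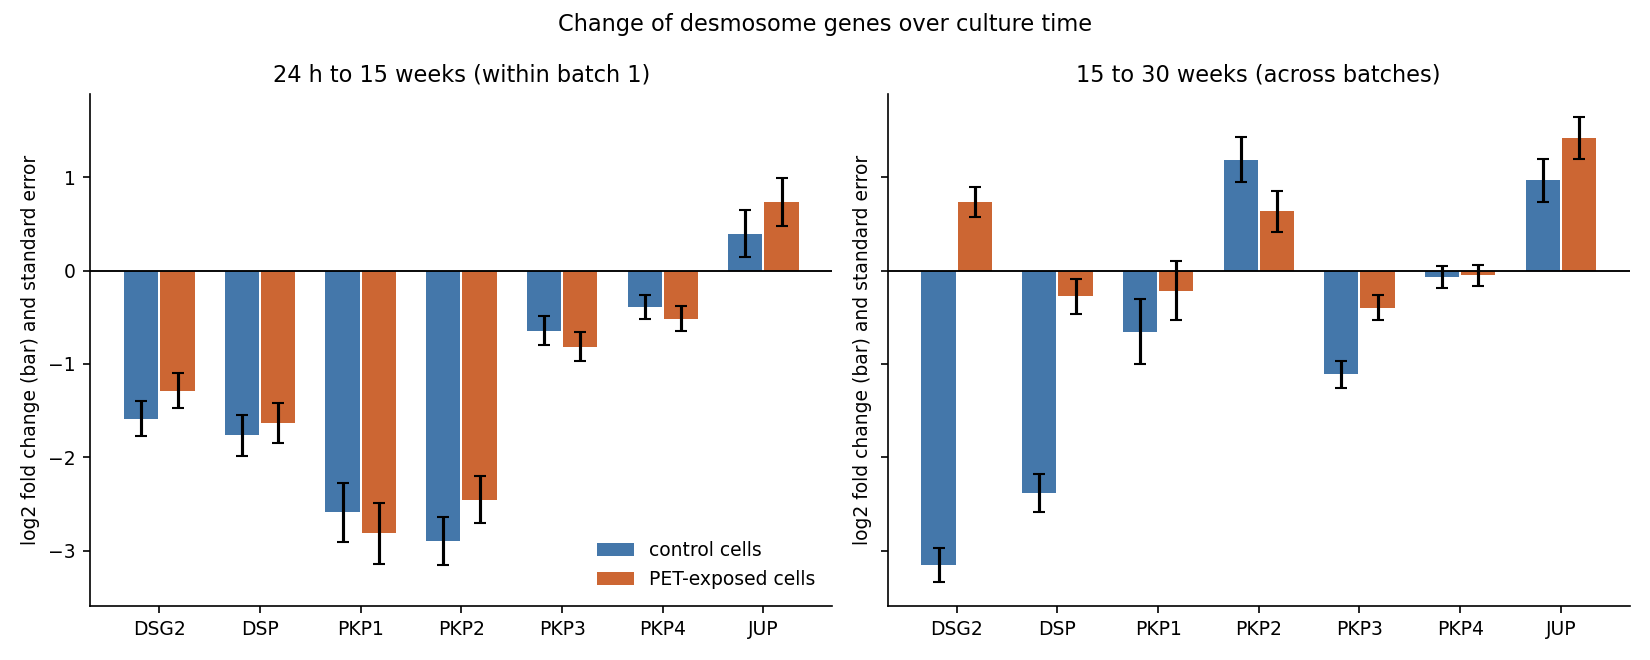
Log2 fold change of 7 members with culture time (bars, with the standard error), from 24 h to 15 weeks within batch 1 on the left and from 15 to 30 weeks across batches on the right, for control (blue) and exposed cells (orange). In the left panel 6 of the 7 genes point down in both arms, and in the right panel DSG2 has opposite signs, -3.16 in control and 0.74 in exposed cells.

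At 30 weeks, the contrast whose outcome was known when the list was made, DSG2 stood 17.1-fold higher in exposed than in control cells, with a log2 fold change of 4.09 ± 0.18 (SE). DSP stood 4.89-fold higher, with 2.29 ± 0.19, and PKP3 1.38-fold higher, with 0.47 ± 0.13. These 3 of the 8 tested members were past the adjusted threshold and none was lower, beside a background of 23.7% of genes called and 12.0% called higher. The same 3 members had samples that did not overlap, beside 14.3% of genes tested with every exposed sample above every control. Since the list was chosen knowing this contrast, nothing is read from these counts.

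JUP had a log2 fold change of 0.48 ± 0.19 at 30 weeks and PKP1 one of 0.37 ± 0.31, with overlapping samples in each. With 1 sample left out, JUP ran from 0.29 (without control replicate 2) to 0.65 (without control replicate 3) and PKP1 from 0.19 to 0.57, and JUP was past the threshold in 2 of 12 alternatives, without control replicate 3 and without exposed replicate 2. PKP2 and PKP4 differed by 0.03 ± 0.19 and -0.03 ± 0.10. Within the plakophilins the 30-week differences therefore ranged from -0.03 for PKP4 to 0.47 for PKP3, far from that of DSG2. Without control replicate 1, DSG2 kept a log2 fold change of 4.09 and DSP had 2.15, while PKP3 had 0.59, JUP 0.54, PKP1 0.48, PKP2 -0.19 and PKP4 -0.09. The call of PKP3 was lost without control replicate 3, where its log2 fold change was 0.39. The summed levels of the muscle and airway markers differed in the same samples as DSG2 and DSP, though not every marker did. The part of these markers in the differences of the members was not tested.

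The 30-week levels were also set against those at 15 weeks in each arm, where time and batch cannot be told apart. In control cells DSG2 was lower at 30 than at 15 weeks, with a log2 fold change of -3.16 ± 0.19, while DSP had -2.38 ± 0.20 and PKP3 -1.11 ± 0.14. JUP had 0.97 ± 0.23 and PKP2 1.19 ± 0.24, and PKP1 with -0.65 and PKP4 with -0.07 were not called. Thus 3 members were called lower and 2 higher, beside 50.3% of genes called, 24.6% lower and 25.6% higher. Without control replicate 1 at 30 weeks the count called was again 5, with -3.15 for DSG2, -2.25 for DSP, -1.23 for PKP3, 0.91 for JUP and 1.42 for PKP2.

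In exposed cells DSG2 had a log2 fold change of 0.74 ± 0.16 from 15 to 30 weeks, JUP 1.42 ± 0.23, PKP2 0.64 ± 0.22 and PKP3 -0.40 ± 0.14. DSP had -0.28 ± 0.18, PKP1 -0.22 and PKP4 -0.05, and these were not called. This made 3 members higher and 1 lower, beside 46.0% of genes called, 23.3% higher and 22.7% lower. The count fell to 2 without exposed replicate 1 at 15 weeks, where PKP2 and PKP3 were no longer called.

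Exposed minus control at 30 weeks, less the same difference at 15 weeks, sets 2 within-batch differences against each other. It was 3.89 ± 0.25 on the log2 scale for DSG2 and 2.11 ± 0.28 for DSP, the 2 members past the threshold, beside a background of 4.74% of genes called and 2.66% called higher. PKP3 had 0.71 ± 0.20, JUP 0.45 ± 0.31, PKP2 -0.55 ± 0.32 and PKP4 0.02 ± 0.17. Without control replicate 1 at 30 weeks DSG2 had 3.89 and DSP 1.97, and PKP3, with 0.83, was then past the threshold as well. These values use the 30-week contrast and are likewise a description. For DSG2 the 30-week difference came with a control level of 2.57 ± 0.372 CPM (SD, n = 3), under the 22.97 ± 0.0970 CPM (SD, n = 2) of the 15-week controls, and an exposed level of 43.96 ± 8.89 CPM (SD, n = 4), above the 26.38 ± 0.909 CPM (SD, n = 2) of the 15-week exposed cells.

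Genes around the desmosome were followed in lists of related genes, drawn up with earlier results known, of which 53 of 65 genes could be tested. At 30 weeks 13 of them were higher and 8 lower in exposed cells, in edgeR's test over all genes, beside a background of 23.7% of genes called and 12.0% called higher. Called lower were 1952 of all 16740 genes tested, and the same background holds for the counts of each list below. Without control replicate 1 the number called was 17. Of 6 further plaque and desmosome-associated proteins, PNN (pinin) was called higher, with a log2 fold change of 0.40 ± 0.14, and the plakin PPL (periplakin) lower, with -1.31 ± 0.30. PERP, a membrane protein needed for desmosome assembly, was at 28.0 to 42.5 CPM in control and 38.7 to 68.3 CPM in exposed cells, with overlap and no call. Of the adherens junction relatives of plakoglobin, none of 3 was called.

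Of 7 tested intermediate filament genes, which include the keratins that DSP binds, 3 were called higher and 1 lower. KRT8, the main type II keratin of simple epithelia, was at 127 to 187 CPM in the 30-week controls and 541 to 710 CPM after exposure, which was a log2 difference of 2.04 ± 0.16. KRT19 had 1.93 ± 0.34 at no more than 4.00 CPM in any exposed sample. DES, the muscle filament desmin, which DSP holds in heart muscle, had -4.19 ± 0.64. It had 37 to 53 counts in the control samples, 0 to 6 in the exposed samples and at most 5 in any earlier sample. DES could therefore pass the filter only through the 30-week controls, so the direction of its change was fixed by the filter. It is the 1 filament gene called lower and is among the 8 related genes called lower.

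Among classical cadherins, 2 of 4 tested were called higher and none lower. CDH3 (P-cadherin) had 2.82 ± 0.31 and CDH2 (N-cadherin) 1.16 ± 0.10. CDH1 (E-cadherin) had 11 to 19 counts in control and 16 in each exposed sample. DSG2 in the 30-week exposed cells thus stood beside CDH1 at under 1 CPM. Of 9 hemidesmosome genes, which anchor keratin to the basement membrane side, 2 were higher and 2 lower, with LAMA3 at 1.38 ± 0.20 and ITGB4, the integrin that binds plectin, at -2.32 ± 0.33.

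Regulators known to act on epithelial junction genes were also counted. Of 6 repressors linked to epithelial-mesenchymal transition (EMT), 3 were called lower in exposed cells at 30 weeks and none higher. SNAI2 (Slug) belongs to the Snail family, whose E-box form occurs in DSG2 and DSP and also in JUP and DSC2. SNAI2 was at 24.4 to 27.1 CPM in the 30-week controls and 2.10 to 3.43 CPM after exposure, which was a log2 difference of -3.27 ± 0.18. ZEB1 had -1.10 ± 0.10 and TWIST1 -1.02 ± 0.13. SNAI1 with 0.72 ± 0.40, ZEB2 with 0.34 ± 0.12 and TWIST2 with -0.22 ± 0.17 were not called. At 24 h, where DSG2 was highest, SNAI2 averaged 15.8 CPM in both arms, and ZEB1 50.3 CPM in control and 49.5 CPM in exposed cells. At 15 weeks SNAI2 averaged 4.7 and 3.7 CPM and ZEB1 31.5 and 30.8 CPM in control and exposed cells. The part of these factors in the level of DSG2 was not tested.

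Of 9 tested activators of epithelial genes, 4 were higher and 1 lower at 30 weeks. TFAP2C (AP-2γ) had the widest difference, 3.59 ± 0.22, from 1.03 to 1.95 CPM in control to 15.5 to 19.9 CPM in exposed cells. At 24 h, where DSG2 was highest, TFAP2C averaged 1.65 CPM in control and 1.295 CPM in exposed cells. At 15 weeks it averaged 5.93 CPM in control and 9.09 CPM in exposed cells. Its part in the level of DSG2 was not tested. KLF5 had -0.94 ± 0.17. Of 9 genes of desmosome turnover (proteases that shed DSG2, kinases and palmitoyl transferases), ADAM10, which sheds DSG2, was the 1 gene called, with 0.40 ± 0.13.

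**Figure D3:**
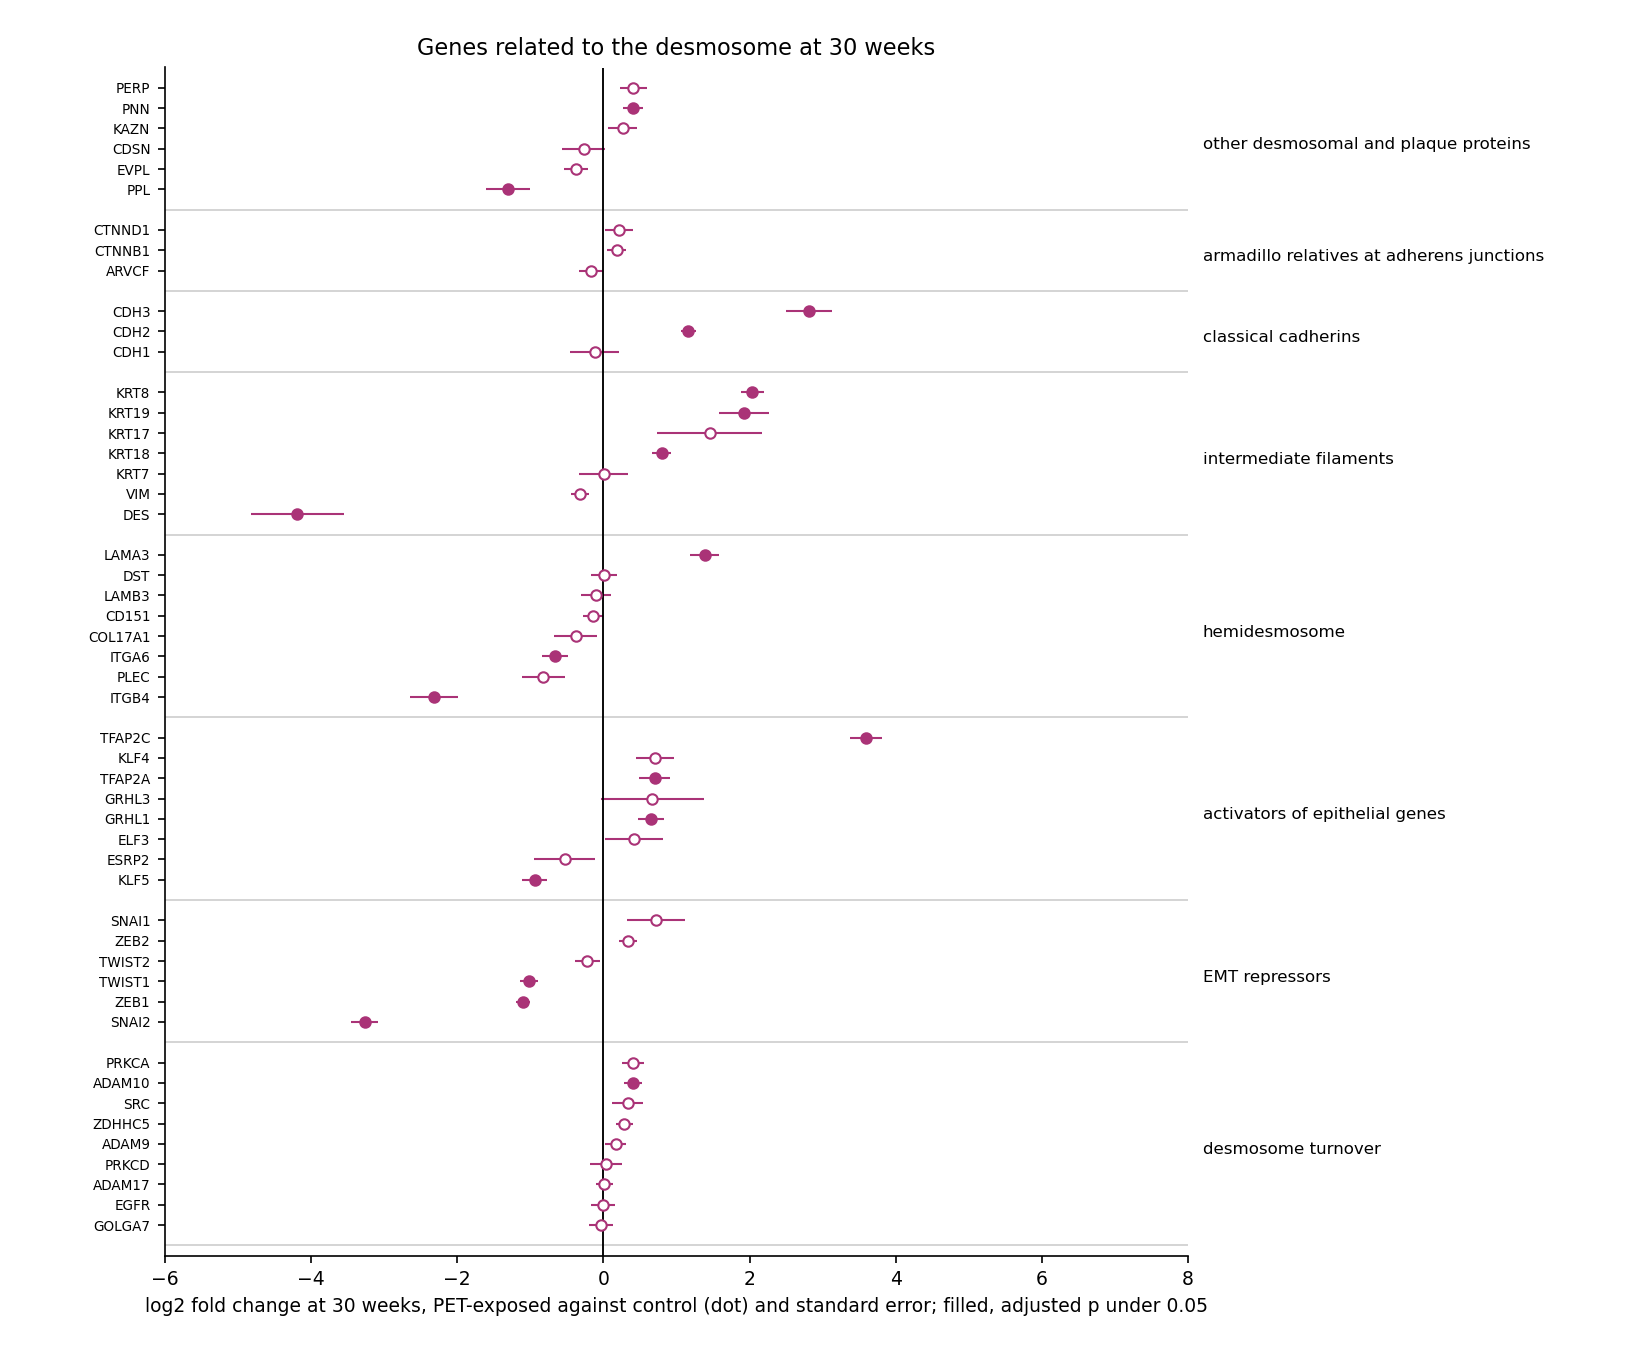
Log2 fold change at 30 weeks, exposed against control cells, of related genes grouped by role (dots, with the standard error; filled dots had an adjusted p under 0.05 in edgeR). CDH11, with at most 2 counts in any 30-week sample, is left out, and SNAI2 at -3.27 and TFAP2C at 3.59 lie at opposite sides.

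On chromosome 18, DSG2 was set beside its neighbours, because the 7 desmosomal cadherin genes form 1 cluster there and DSG2 was the member with ample counts. Of 16 other genes in the table within 1 Mb of the interval from DSC3 to DSG2, 8 were tested, with 2 called higher and 1 lower at 30 weeks, beside 2009 higher and 1952 lower of all 16740 genes tested. B4GALT6, whose start lies 124 kb from that of DSG2, went from 1.67 to 9.10 CPM on average, a log2 fold change of 2.43 ± 0.22, and GAREM1, 765 kb away, had -2.62 ± 0.31. DSG2-AS1, an antisense gene that overlaps DSG2, had 0 CPM in every 30-week control and a mean of 0.194 CPM in exposed cells. It never exceeded 15 counts in a sample, against up to 1994 for DSG2. Since the counting strand is not stated in the sources used here, reads of DSG2 and DSG2-AS1 may not be told apart. Over chromosome 18 as a whole, 39 of 227 tested genes were higher and 14 lower, with a median log2 fold change of 0.12, beside 0.008 over all genes and the same counts of 2009 higher and 1952 lower.

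**Figure D4:**
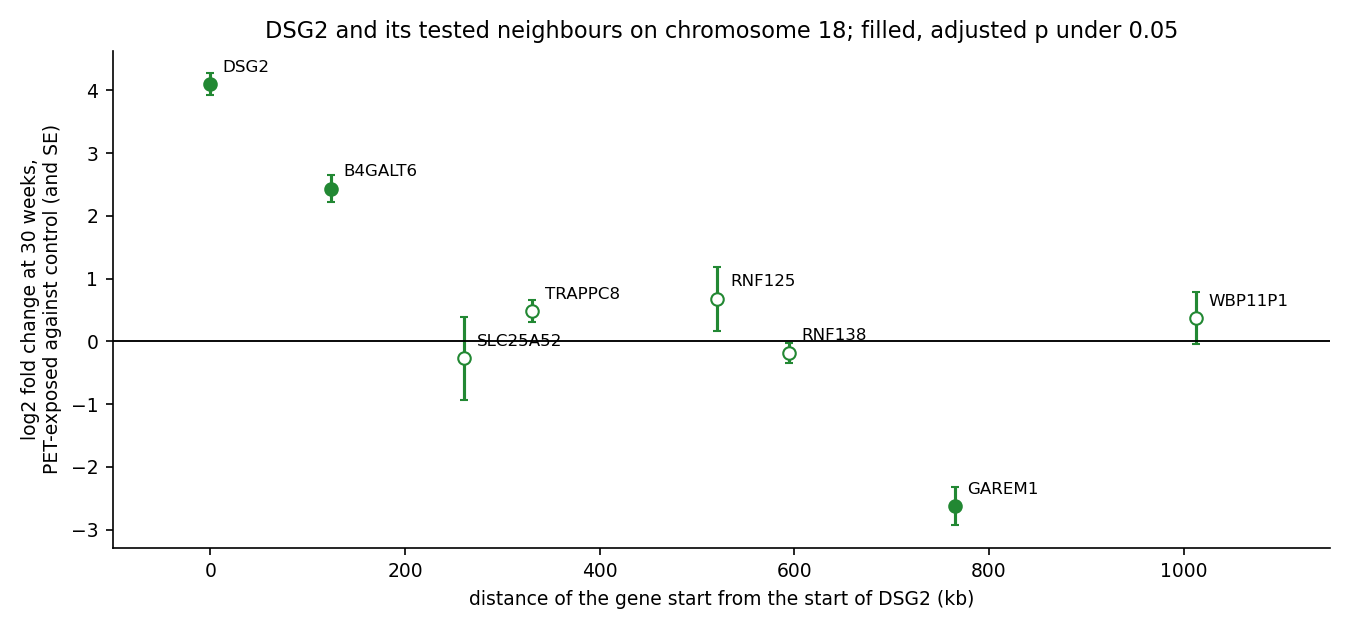
Log2 fold change at 30 weeks, exposed against control cells, of DSG2 and its tested neighbours on chromosome 18 by the distance of their starts in kilobases (dots, with the standard error; filled dots had an adjusted p under 0.05 in edgeR). DSG2-AS1, at 0 counts in the controls, is left out, and beyond B4GALT6 at 124 kb the next filled dot is GAREM1, on the lower side.

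The genes whose log2 CPM was most like that of DSG2 over the 15 samples were PRKCZ and NFIA (Pearson correlation 0.979 each), KANK1 (0.972), SLC20A1 (0.964) and CBX2 (0.963). The 15 points share conditions and batches, so the correlations carry no test. NFIA, a nuclear factor I transcription factor, averaged 0.926 CPM in the 30-week controls and 13.7 CPM in exposed cells. PRKCZ, an atypical protein kinase C of epithelial polarity, averaged 1.17 and 11.8 CPM in the same groups. Of these 5 genes, only SLC20A1 averaged more than 3 CPM in the 30-week controls, at 94.7 CPM.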

How the data were processed

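Per the labels and the methods of the study, ribosome-depleted total RNA of 15 samples was sequenced in pairs of reads. The authors filtered reads with Rfastp (reads under 20 bases were discarded), mapped them to GRCh38 (hg38) and counted them per Entrez gene with Rsubread (featureCounts in the submitters' processing notes, beside bcl2fastq). Deposited values are raw counts, with no normalization and no pooling of replicates. The counting strand and the handling of multi-mapping reads are not given in the sources used here, so counts of overlapping or near-identical genes are uncertain.

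Symbols were found for 27745 of 28395 Entrez numbers. After the filterByExpr filter of edgeR 4.0.16 (R 4.3.3), with the 6 conditions as groups, 16740 genes remained, and TMM factors and a model with 1 mean per condition were computed over all 15 samples. The quasi-likelihood test was adjusted over all genes by Benjamini-Hochberg, with a threshold of 0.05. SE is the absolute log2 fold change divided by the root of F. CPM uses the scaled library sizes, correlations use log2 CPM with a prior count of 2, and levels per kilobase use the union of GENCODE v44 exons. Folds against libraries at 0 use a floor of 3 counts, and floors cover counting error only. Coordinates and promoters are from RefSeq, GRCh38.p14. Alternatives were DESeq2 1.42.0, limma 3.58.1 with voom, alone and with 2 surrogate variables (sva 3.50.0; the study names these tools, and the number of variables was set here), each time point by itself, upper-quartile scaling, no filter or a minimum of 10 counts in every sample, removal of 6 abundant small noncoding RNAs, a threshold of 0.01, a replicate block, and leaving out each sample. The scripts were tested on simulated counts.

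The members and all gene lists were chosen with earlier results of these data known. Named were all members, up to 3 called genes per related list with the largest 30-week change, the neighbours on chromosome 18 and the 5 genes most like DSG2. Some genes that the rule names are not reported here. B4GALT6, GAREM1, DSG2-AS1, PERP, CDH1 and NFIA were described after their values were seen. The same holds for the single marker genes named and for SNAI1, ZEB2, TWIST2 and CDH11.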

Additional observations from a re-analysis of the deposited data

Results flagged for a closer look

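Among the exposed samples at 30 weeks, replicate 2 had the lowest PKP2 level, 8.41 CPM, apart from 10.5, 10.6 and 10.9 CPM in the other 3 samples. Its gap to the nearest sample was 0.8385 of the range of the group (Dixon's ratio), over Dixon's 95% critical value for 4 samples. Chance alone gives such a gap in about 1 in 20 groups. The other 7 tested members had ratios of at most 0.7995 in these samples.

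The difference between exposed and control cells was itself different at 30 and at 15 weeks for DSG2, by 3.893 on the log2 scale, and for DSP, by 2.108. Both rest on the 30-week contrast that was known when the members were listed, and on 2 samples per group at 15 weeks. Values of single genes were taken from 16 alternatives: DESeq2, limma-voom, no filter, upper-quartile scaling, the replicate block and leaving out each of 11 samples. In these, the difference stayed at 3.80 to 4.01 for DSG2 and 1.94 to 2.21 for DSP. The other alternatives, limma-voom with 2 surrogate variables among them, entered the counts of members called but not these ranges.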

How the results depend on the processing

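Over all alternatives, 2 to 4 members were called at 30 weeks, 5 to 7 from 24 h to 15 weeks in control cells and 6 to 8 in exposed cells, 5 from 15 to 30 weeks in control cells, 2 or 3 in the difference of differences, and 15 to 28 related genes at 30 weeks. From 15 to 30 weeks in exposed cells the count was 4, and it became 2 with the replicate block and 2 at an adjusted p under 0.01. Leaving out 1 sample at a time gave 2 to 4 members in that comparison. No member was called at 24 h or 15 weeks under any alternative. Directions turned in uncalled values, with 1 sample left out and, for PKP4 at 30 weeks, also with the replicate block (0.020). At 24 h the log2 fold change then ran from -0.0091 (without control replicate 1) to 0.50 for DSC3, from -0.051 (without exposed replicate 1) to 0.30 for PKP2, from -0.18 to 0.020 (without exposed replicate 2) for PKP3, and from -0.091 (without control replicate 2; -0.064 without exposed replicate 2) to 0.21 for DSP. At 15 weeks JUP ran from -0.16 (without exposed replicate 2; -0.038 without control replicate 1) to 0.20. At 30 weeks PKP2 ran from -0.19 to 0.20 and PKP4 from -0.088 to 0.037, and PKP4 ran from -0.042 to 0.083 in the difference of differences. Besides the calls named above, the control call of PKP4 at 15 weeks against 24 h was lost with no filter, with upper-quartile scaling and with the replicate block (adjusted p = 0.0726, edgeR). The cause was not tested. Over all genes, 18 were called at 15 weeks by DESeq2, 10 by limma-voom with 2 surrogate variables, 304 with that time point alone and 0 by edgeR. At 30 weeks 3961 were called by edgeR, 5665 by limma-voom with 2 surrogate variables and 2370 with that time point alone. To look for pairing, the mean of each condition was taken off the log2 CPM of every gene. What was left correlated between same-numbered control and exposed samples by -0.06 at 24 h, 0.03 at 15 weeks and -0.12 to 0.30 at 30 weeks. At 24 h and 15 weeks, with 2 samples per condition, different-numbered samples must give the same size with the opposite sign. At 30 weeks different-numbered samples were not set beside them, so whether the numbers pair the samples is not settled. No scaling moved the median of all genes by over 0.1. Depth limits DSC2, DSG3 and DSC3, which were near 0, and 2 samples per group limit the earlier comparisons.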

Other observations

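The related genes also moved with culture time. From 24 h to 15 weeks, within batch 1, 17 of the 53 tested were lower and 3 higher in control cells, and 19 were lower and 6 higher in exposed cells, in edgeR's test at an adjusted p under 0.05. The background was 24.9% of genes called and 12.2% called lower in control cells, and 26.0% called, 12.5% lower and 13.5% higher in exposed cells. Of the 4 classical cadherins 3 were lower in each arm and none higher, and CDH1 went from 21 to 27 counts per sample to 2 to 3 counts in control cells. CDH11 is among these 3 and among the 17 and 19 above. It had 74 to 108 counts at 24 h and at most 2 counts at 15 weeks. Like DSC3, it could pass the filter only through its 24 h counts, so its fall was fixed by the filter. Of the 9 hemidesmosome genes 5 were lower in each arm and none higher. Of the 6 EMT repressors 2 were higher and 2 lower in each arm.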
